A study of Mus musculus with 60 samples.

Results

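Chromosome 13 of the mouse carried a smaller share of the H3K27me3 peaks in H3R2C, H3R8C and H3R17C mesenchymal progenitor cells (MPC) than in H3WT cells, and a larger share in H3R26C cells. The regions described here are the H3K27me3 and HA peaks called on this chromosome. All H3K27me3 peaks of the independent lists were merged, and a region was kept where it was called in every independent list of at least 1 genotype. This left 773 regions on chromosome 13 of 22849 on all chromosomes, with 19009 on the other autosomes. The chromosome was selected on the measured peak shares, peak signal and calls of these same lists, so its differences from the other autosomes are given as descriptions with no test. Whether the pools differ in copies of this chromosome was not tested. Of 1393 merged regions on the chromosome, 620 were left out by the rule. The kept regions had a median length of 5.75 kb and a median of 5 lists, and those left out had 2.55 kb and 1 list. At the edge of the rule, 11 regions were kept on the 1 list of H3R17C alone, and 471 regions seen in 1 list of another genotype were not.

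The study measured H3K27me3 and HA-tagged H3 by CUT&RUN, in which an antibody directs a nuclease to cut out the DNA beneath its target in unfixed cells. The cells were C3H10T1/2 (clone 8), a mouse line of multipotent mesenchymal progenitors. All groups were puromycin-selected pools that carried a lentiviral human H3C2 cDNA (histone H3.1) with C-terminal HA and FLAG tags under an EF1 promoter. This transgene was wild type in H3WT, and coded for cysteine in place of arginine at residue 2, 8, 17 or 26 in H3R2C, H3R8C, H3R17C and H3R26C. The endogenous H3 genes were intact in all of them, so the anti-H3K27me3 antibody reads tagged and untagged H3 together. Each genotype and antibody had 3 labelled replicates, of which a pair held the same list in all 10 groups and was counted once. This left 2 lists per group, a shared list (replicates 1 and 2) and the replicate 3 list, which are given in this order throughout. H3R17C had 1 usable H3K27me3 list (replicates 2 and 3). The study describes its replicates as biological. The labels do not say whether they came from separate cultures, and p-values measure only the spread between these lists, which may be technical. The 9 H3K27me3 lists held 20077 to 24598 peaks and the 10 HA lists 15344 to 52083. The study gives total reads for each labelled replicate, but these were not used here. A list shared by a pair of replicates cannot be tied to either of their totals. The smallest summed signal called in a H3K27me3 list ranged from 3400 to 8050. Peak lists hold no expression, so the identity of the cells was not checked against markers.

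H3K27me3 is placed by Polycomb repressive complex 2 (PRC2), whose EZH1 or EZH2 subunit methylates lysine 27 of H3. The mark covers broad domains over silent developmental genes, above all transcription factors of lineages other than that of the cell, and is recognised by the canonical PRC1 complex. Chromosome 13 holds many such genes, among them Isl1, Msx2, Pitx1, Neurog1, Barx1 and the Irx1, Irx2 and Irx4 cluster, and also the largest cluster of replication-dependent histone genes of the mouse. The chromosome measures 120.4 Mb in GRCm38 (mm10), the build of the files. The 773 regions covered 6.19 Mb, or 5.14% of it, and the longest was 163.6 kb. A transcription start lay within 1 kb of 149 regions (19.3%, beside 20.5% on the other autosomes), 131 overlapped an exon without a start, 121 lay in introns and 372 were intergenic.

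The following sequences show the kind of DNA behind the results. The first 3 are the 250 bases before the RefSeq start of genes whose regions lost most or all signal in H3R2C, and the other 2 are 300 bases at the highest signal of the longest regions gained in H3R2C and in H3R26C. All are from GRCm38.p6 and are written 5′ to 3′, with CpG dinucleotides in capitals. Msx2, which codes for a homeobox factor of limb and skull development (chr13:53472781-53473030, minus strand), held 16 CpG. The LIM-homeodomain gene Isl1 (chr13:116309689-116309938, minus strand) held 33. Sv2c, which codes for a synaptic vesicle glycoprotein (chr13:96132578-96132827, minus strand), held 26. Of 1527 RefSeq starts on the chromosome, 23.1%, 4.91% and 10.3% held at least as many CpG in their 250 bases.
Msx2: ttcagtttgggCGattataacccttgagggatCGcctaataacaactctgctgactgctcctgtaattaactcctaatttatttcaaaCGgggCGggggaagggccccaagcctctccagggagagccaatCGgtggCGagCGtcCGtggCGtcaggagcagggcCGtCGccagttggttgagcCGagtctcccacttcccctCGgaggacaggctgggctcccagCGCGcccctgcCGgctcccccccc
Isl1: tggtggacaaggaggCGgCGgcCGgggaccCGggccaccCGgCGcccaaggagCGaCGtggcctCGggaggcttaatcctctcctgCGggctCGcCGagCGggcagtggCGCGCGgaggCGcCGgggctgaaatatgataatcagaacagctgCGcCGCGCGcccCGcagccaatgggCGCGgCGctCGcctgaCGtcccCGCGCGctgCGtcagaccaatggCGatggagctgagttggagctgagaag
Sv2c: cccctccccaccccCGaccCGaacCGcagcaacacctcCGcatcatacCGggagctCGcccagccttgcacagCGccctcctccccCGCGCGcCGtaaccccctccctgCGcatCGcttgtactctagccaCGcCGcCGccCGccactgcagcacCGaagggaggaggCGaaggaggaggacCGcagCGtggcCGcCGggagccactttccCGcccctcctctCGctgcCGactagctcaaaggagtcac
The longest region gained in H3R2C lay in a gene-poor stretch 551.7 kb from the nearest coding start, that of Mef2c, and its window (chr13:82929876-82930175, plus strand, in the shared H3R2C list) held 1 CpG. The longest region gained in H3R26C lay 82.9 kb from a start of Adgrv1, and its window (chr13:81442926-81443225, plus strand, in the shared H3R26C list) held 2.
Gained in H3R2C, near Mef2c: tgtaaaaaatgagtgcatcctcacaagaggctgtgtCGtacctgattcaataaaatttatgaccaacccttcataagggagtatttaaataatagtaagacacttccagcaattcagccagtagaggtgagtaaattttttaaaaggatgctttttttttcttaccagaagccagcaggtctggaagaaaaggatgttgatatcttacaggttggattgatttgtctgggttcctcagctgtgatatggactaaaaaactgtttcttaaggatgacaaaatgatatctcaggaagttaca
Gained in H3R26C, near Adgrv1: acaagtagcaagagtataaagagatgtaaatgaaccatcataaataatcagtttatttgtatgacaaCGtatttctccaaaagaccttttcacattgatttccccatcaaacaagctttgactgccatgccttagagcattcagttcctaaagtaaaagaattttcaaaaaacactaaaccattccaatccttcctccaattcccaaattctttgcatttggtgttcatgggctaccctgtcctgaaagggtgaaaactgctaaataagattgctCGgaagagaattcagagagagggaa
The same 300-base window was taken in every region, at its highest signal in the list where its scaled signal was highest. At least 10 CpG were found in 36 of 773 windows (4.66%), beside 2.04% of 390399 windows of this length along the chromosome. The share was 15 of 144 (10.4%) in regions lost in H3R2C and 12 of 324 (3.70%) in H3WT regions kept in H3R2C. In the other mutants the lost regions had the lower share, with 3 of 100 (3.0%) beside 6.52% of those kept in H3R8C, 6 of 134 (4.48%) beside 6.29% in H3R17C and 0 of 33 beside 6.21% in H3R26C. It was 0 of 47 in regions gained in H3R2C and 5 of 117 (4.27%) in those gained in H3R26C. CpG content was not used to choose the regions, and windows near each other share base composition, so these shares are descriptions.

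The share of autosomal H3K27me3 peaks that lay on chromosome 13 was nearly the same in the H3WT lists, at 4.33% (784 of 18117; 95% Wilson interval 4.04 to 4.63) and 4.31% (775 of 17963). In H3R2C it was 3.27% and 2.79%, and in H3R8C 3.17% and 3.30%. The 1 H3R17C list gave 3.43% (637 of 18586; 3.18 to 3.70). In H3R26C it was 5.08% and 5.28%. All 5 lists of H3R2C, H3R8C and H3R17C lay below both H3WT lists and both H3R26C lists lay above them. The means were 4.32 ± 0.00919% in H3WT, 3.03 ± 0.342% in H3R2C, 3.24 ± 0.0910% in H3R8C and 5.18 ± 0.141% in H3R26C (SD, n = 2 lists each). These are 0.701, 0.749 and 1.20 times the H3WT share in H3R2C, H3R8C and H3R26C, and 0.793 times in H3R17C. Over the 18 other autosomes the same ratio ran from 0.765 (chromosome 1) to 1.37 (chromosome 15) in H3R2C, from 0.948 to 1.13 in H3R8C, from 0.849 (chromosome 14) to 1.12 in H3R17C and from 0.865 to 1.10 in H3R26C. Chromosome 13 therefore ranked lowest of 19 in the first 3 mutants and highest in H3R26C. With 2 lists a group an exact permutation test cannot reach 0.05, and intervals cover counting error only.

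**Figure D1:**
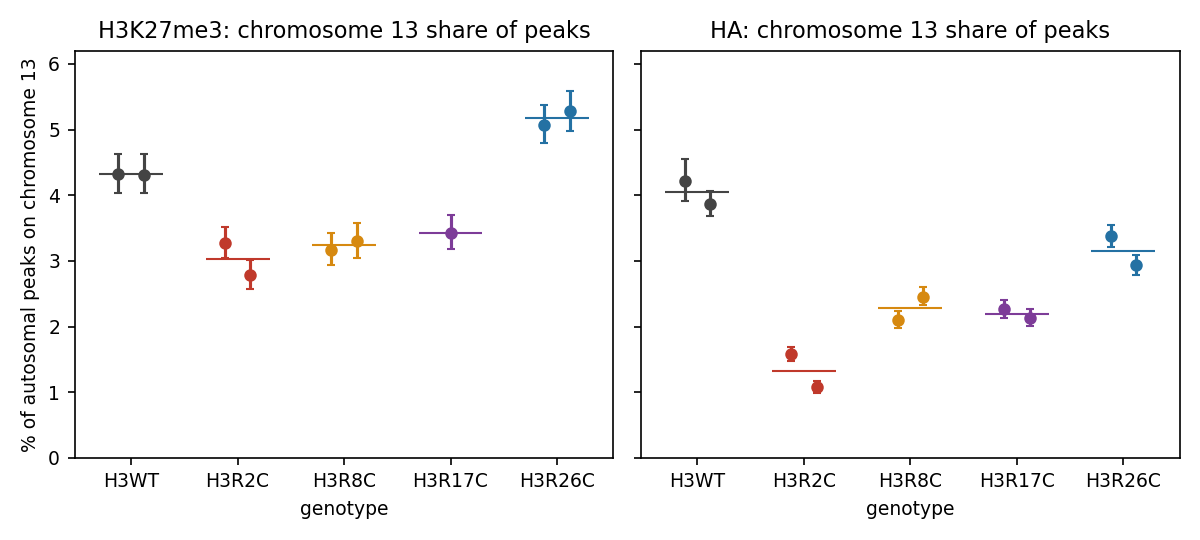
Share of autosomal peaks on chromosome 13 (y axis, percent) in each independent list, for H3K27me3 (left) and HA (right), by genotype (x axis); points are lists, bars are 95% Wilson intervals and horizontal lines are genotype means. For H3K27me3 the H3R26C lists (5.08% and 5.28%) lie above H3WT and the 5 lists of the other mutants lie below, and for HA all mutant lists lie below both H3WT lists.

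The strength of the peaks moved in the same directions as their number. The signal of a region is its summed coverage in called peaks divided by the median over the regions called in every list, and changes are on the scale log2(scaled signal + 0.25), which understates the change of weak regions. In the 173 chromosome 13 regions called in all 9 lists, the median log2 change against H3WT was -0.28 in H3R2C, -0.24 in H3R8C, -0.20 in H3R17C and 0.23 in H3R26C. The other autosomes (4803 regions) gave 0.06, 0.07, 0.02 and 0.08. List by list, the chromosome 13 median less that of the other autosomes was -0.30 and -0.47 in H3R2C, -0.34 and -0.35 in H3R8C, -0.22 in H3R17C, and 0.11 and 0.21 in H3R26C. The H3WT lists differed from each other by 0.02. This signal was among the values that chose the chromosome, so the offsets are a description. Of the 173 regions, 128 were lower in H3R2C, 142 in H3R8C, 134 in H3R17C and 44 in H3R26C, without regard to a threshold. These are 74.0%, 82.1%, 77.5% and 25.4%, beside 44.6%, 40.4%, 47.8% and 44.0% on the other autosomes. Chromosome 13 was not alone: chromosome 16 was lower in H3R2C (-0.29), chromosome 14 was lower in H3R17C (-0.27) and chromosome 17 came close in H3R26C (0.22). Chromosome 13 was the lowest of 19 in H3R8C, where the next autosome stood at 0.00.

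**Figure D2:**
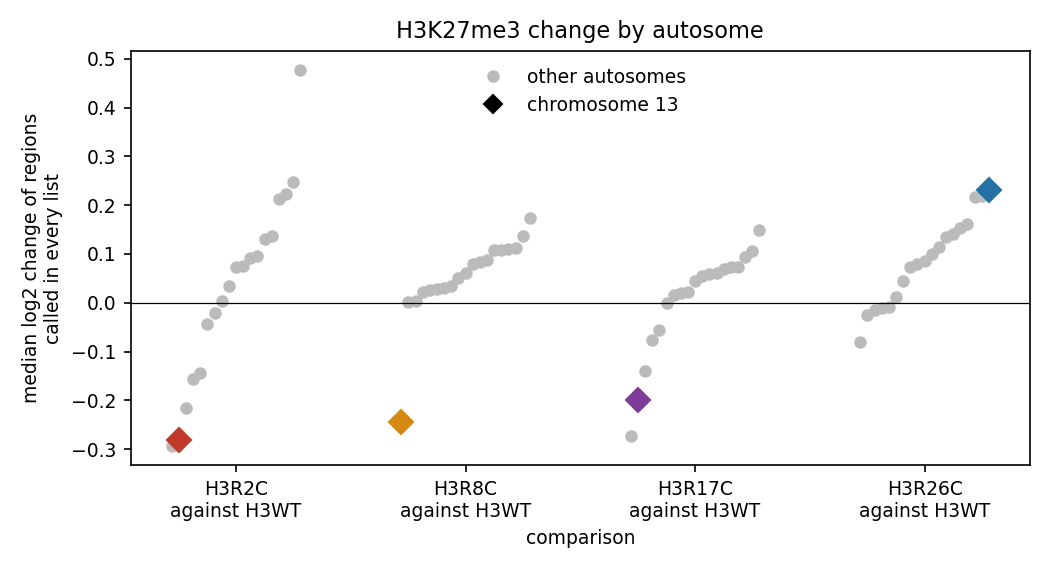
Median log2 change in H3K27me3 against H3WT (y axis) over regions called in every list, for each of 19 autosomes (points, in rising order within each mutant on the x axis); the coloured diamond is chromosome 13. It is at -0.24 in H3R8C, below all other autosomes, second lowest in H3R2C (-0.28) and H3R17C (-0.20), and highest in H3R26C (0.23).

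Over all 773 regions, with those not called in some lists included, the medians were -0.30, -0.31, -0.20 and 0.28, and less those of the other autosomes -0.35, -0.31, -0.20 and 0.28. The rule kept 152 of these regions on H3R26C alone, beside 44 on H3WT, 44 on H3R2C, 35 on H3R17C and 5 on H3R8C. H3R26C values over all regions, here and below, therefore include regions kept because they were called there. Over the 173 regions called in every list the H3R26C median less that of the other autosomes was 0.15. The H3R17C value rests on 1 list and was smaller when a H3WT list was left out, at -0.12 without the shared list and -0.06 without replicate 3. Cut into 10 Mb windows, of which 12 held at least 20 regions, the chromosome was lower in 11 of 12 windows in H3R2C, H3R8C and H3R17C, and at 0 in the remaining window (window 9, 80 to 90 Mb). On the other autosomes 21.6%, 15.0% and 21.6% of 227 such windows were below 0. H3R26C was above 0 in 10 of 12 windows, beside 44.1% on the other autosomes. The deepest windows were 11 in H3R2C (-0.69), 4 in H3R8C (-0.59) and 12 in H3R17C (-0.66), and the highest in H3R26C was 7 (0.68). In windows 4 and 12 H3R26C stood at -0.22 and -0.25, the same side as the other mutants. The windows were not chosen by a rule and are singled out after their values were seen.

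**Figure D3:**
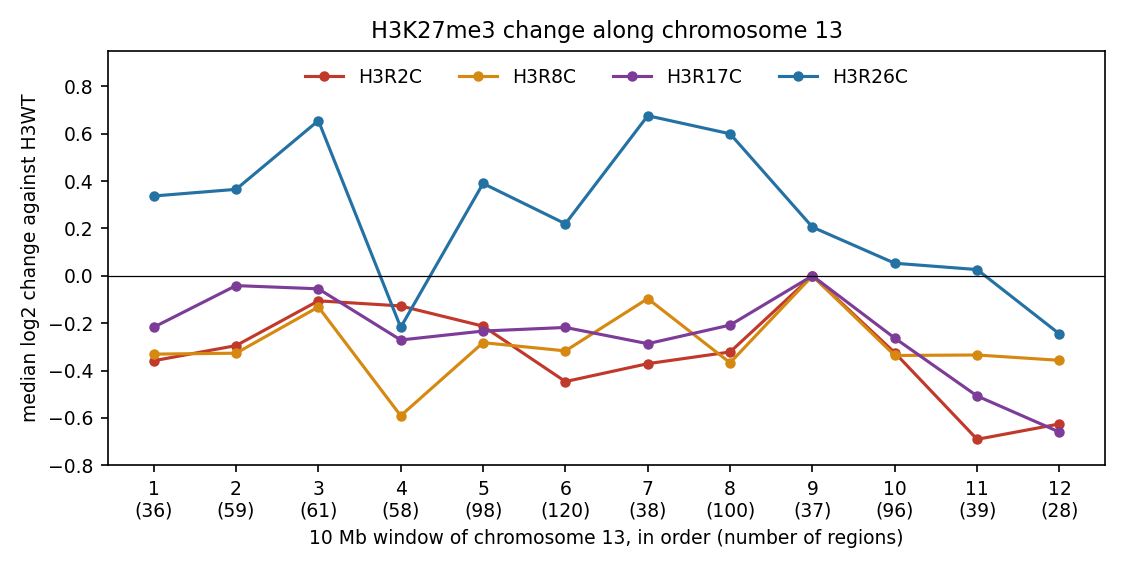
Median log2 change against H3WT (y axis) of the H3K27me3 regions in consecutive 10 Mb windows of chromosome 13 (x axis, with the number of regions in each), 1 line per mutant. The H3R2C, H3R8C and H3R17C lines lie below 0 in all windows but window 9, and the H3R26C line lies above 0 in 10 of 12.

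Of the 468 chromosome 13 regions called in both H3WT lists, 144 (30.8%) had no peak in either H3R2C list, beside 14.4% on the other autosomes. In H3R8C 100 (21.4%) were lost, beside 9.98%. In H3R17C 134 (28.6%) were missing from its 1 list, beside 17.6%. H3R26C lost 33 (7.05%), beside 13.8%. Chromosome 13 had the highest lost share of 19 autosomes in the first 3 mutants and the lowest in H3R26C. Gains went the other way. Regions with no H3WT peak and a peak in every mutant list numbered 47 of 773 (6.08%) in H3R2C, beside 14.9% elsewhere, 8 (1.03%, beside 5.95%) in H3R8C, 33 (4.27%, beside 8.23%) in H3R17C and 117 (15.1%, beside 8.62%) in H3R26C. A single list moved some counts by more than 1.5 times. Without the shared H3R2C list 219 regions were lost in H3R2C (46.8%, beside 26% elsewhere), and without H3R2C replicate 3, 75 were gained. Without the shared H3R26C list 104 were lost in H3R26C (22.2%, beside 29.6%). Gains in H3R8C were 20 to 22 without any 1 of the H3WT and H3R8C lists, and those in H3R17C were 59 without the shared H3WT list. In all of these alternatives chromosome 13 stayed on the same side of the other autosomes.

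**Figure D4:**
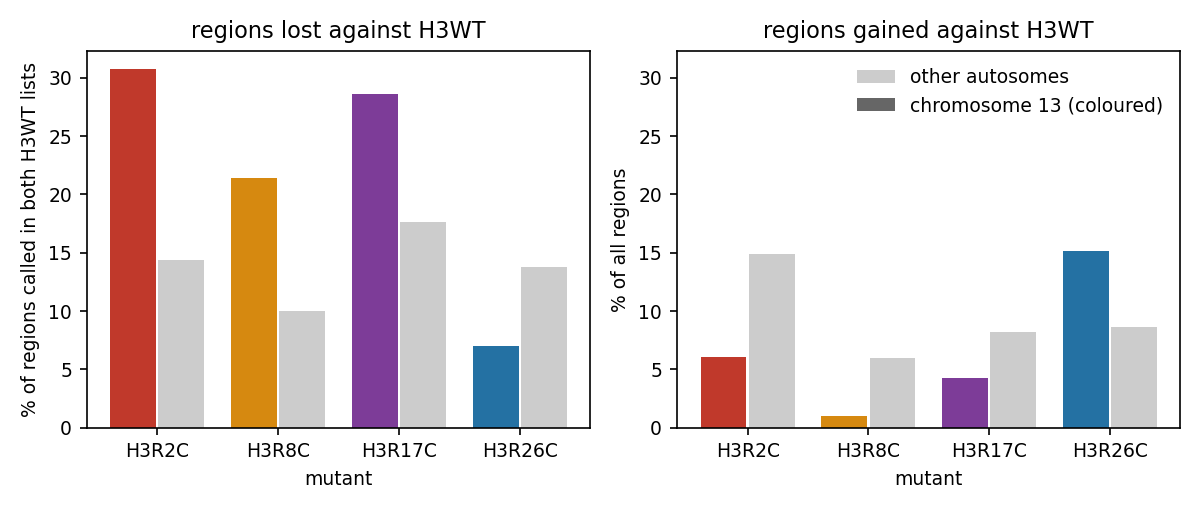
Percent of H3K27me3 regions lost (left, of regions called in both H3WT lists) and gained (right, of all regions) in each mutant, on chromosome 13 (coloured bars) and on the other autosomes (grey bars). On chromosome 13 30.8% were lost in H3R2C, 21.4% in H3R8C and 28.6% in H3R17C, each above the grey bar, and 7.05% in H3R26C, below it.

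The regions lost were mostly weak ones. Their median H3WT signal was 0.33 in the set lost in H3R2C and 0.55 in the set kept, and 0.27 and 0.58 for H3R8C. H3WT regions of all autosomes were therefore split into 3 groups of equal size by H3WT signal. In the weakest group 45.4% of 174 chromosome 13 regions were lost in H3R2C, beside 27.2% elsewhere, and in the strongest group 24 of 147 (16.3%), beside 4.18%. In H3R8C the strongest group lost 5 of 147 (3.4%, beside 0.865%), and in H3R17C 3 of 147 (2.04%, beside 1.04%). H3R26C lost 0 of 147 in the strongest group, beside 2.24% elsewhere. A limit of 2.04% on this share would hold only for independent regions. Regions of the same lists are not independent, so the limit is no test. A start site lay in 27 of the 144 regions lost in H3R2C (18.8%), 10 of 100 in H3R8C, 18 of 134 in H3R17C and 4 of 33 in H3R26C, beside 106 of 468 (22.6%) of all H3WT-called regions.

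Region by region, limma fitted over all 22849 regions with p adjusted over all of them called 127 chromosome 13 regions lower in H3R2C (16.4%; 9.93% of all regions) and 42 higher (5.43%; 14.8%). In H3R8C 32 were lower (4.14%; 2.07%) and 1 higher (0.129%; 2.72%). In H3R17C 23 were lower (2.98%; 1.58%) and 15 higher (1.94%; 3.49%). In H3R26C 18 were lower (2.33%; 5.67%) and 106 higher (13.7%; 6.52%). All mutants were compared with the same 2 H3WT lists. Unlike the comparisons above, this background of all regions includes chromosome 13 and regions outside the autosomes. The chromosome was chosen on these contrasts, so the counts are set beside the background and nothing is read from them. Most calls were regions with no peak on one side, 83 of the 127 lower in H3R2C and 83 of the 106 higher in H3R26C, and their fitted change depends on the pseudocount. Lists without a peak in a region all take the same value in the fit, so their p-values measure no spread on that side. Among the calls named below this holds for Foxq1, Ror2, Cxcl14, Thbs4 and Nrn1 in H3R2C, and for others without a peak in a genotype. Single lists mattered to these counts. The lower count in H3R2C was 77 without H3R2C replicate 3, and the higher count 26 without the shared H3WT list. The lower count in H3R8C was 17 without either H3R8C list and 65 without either H3R26C list, and its higher count 2 to 4. In H3R17C the lower count was 15 without the shared H3R8C list and 50 or 51 without a H3R26C list. In H3R26C it was 44 without the shared H3R26C list.

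Regions at developmental transcription factors were mostly lower in H3R2C. Of 22 such genes listed for this chromosome, 11 had their start in a region, beside 106 of 836 coding genes (12.7%). In H3R2C 9 of the 11 regions were lower past the threshold (beside 9.93% of all regions and 16.4% of those on chromosome 13), with 2 of 10 H3WT-called regions lost (beside 30.8% on the chromosome), 0 were higher, and the median change was -1.71, beside a median of -0.30 over the 773 regions. In H3R8C limma called 0 in either direction (2 lower and 1 higher at an unadjusted p under 0.05), in H3R17C 1 was lower and in H3R26C 1 was higher. Over all regions 2.07% were lower and 2.72% higher in H3R8C, 1.58% lower in H3R17C and 6.52% higher in H3R26C. On chromosome 13 the share higher in H3R26C was 13.7%, and nothing is read from these single calls. The list was chosen with earlier results of these data known.

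The Irx4 region (24.6 kb, chr13:73253951-73278500), at a gene for an Iroquois homeobox factor of heart ventricle, had a scaled signal of 4.40 and 4.40 in the H3WT lists, 0.542 and 0.294 in H3R2C, 3.36 and 3.01 in H3R8C, 3.22 in H3R17C and 4.97 and 6.55 in H3R26C. The H3R2C lists stood apart from all others, and the change was -2.82 ± 0.22 (SE; limma, adjusted p = 0.000529). The Neurog1 region (35.4 kb, chr13:56231151-56266550), at a proneural bHLH gene, had 10.3 and 9.96 in H3WT, 1.33 and 2.22 in H3R2C, 6.53 and 6.50 in H3R8C, 6.95 in H3R17C and 8.26 and 10.9 in H3R26C. H3R2C was lower by -2.40 ± 0.24 (adjusted p = 0.00163), and the H3R8C and H3R17C lists lay below H3WT without passing the threshold (adjusted p = 0.324 and 0.553). The Msx2 region (8.85 kb, chr13:53470151-53479000), whose promoter is printed above, had 1.91 and 1.79 in H3WT and 0.220 and 0.177 in H3R2C, and the other 5 lists ran from 1.49 to 2.75. The change in H3R2C was -2.23 ± 0.18 (adjusted p = 0.000587). The Pitx1 region (22.2 kb, chr13:55820901-55843100), at a homeobox gene of hindlimb identity, had 6.44 and 7.39 in H3WT and 1.75 and 2.12 in H3R2C, with 5.38 to 10.0 in the other lists. It was lower in H3R2C by -1.71 ± 0.18 (adjusted p = 0.00198). These calls held without any 1 list.

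Barx1, a homeobox gene of stomach and jaw mesenchyme, had a 19 kb region with 2.85 and 3.61 in H3WT and 1.16 and 0.936 in H3R2C (-1.42 ± 0.18, adjusted p = 0.00397). On the maximum signal in place of the summed signal it did not pass (adjusted p = 0.162). Otp, a homeobox gene of the hypothalamus, had 11.2 and 10.1 in H3WT and 4.89 and 4.61 in H3R2C over 51.5 kb (-1.13 ± 0.13, adjusted p = 0.00308). H3R8C lists had 11.5 and 10.7, close to H3WT. The Foxq1 region (7.25 kb), at a forkhead gene, had 0.715 and 0.925 in H3WT and no peak in either H3R2C list (adjusted p = 0.000330), while the other 5 lists ran from 0.628 to 1.22. At Irx1 (23.5 kb) the H3WT lists had 3.62 and 3.89 and the H3R2C lists 2.06 and 2.38 (-0.70 ± 0.17, adjusted p = 0.0339), a call lost without either H3WT, H3R2C or H3R8C list (adjusted p up to 0.170) and on the maximum signal. Foxf2 and Id4 had weak regions, with 0 to 0.214 and 0 to 0.211 in the lists outside H3R26C, 0.592 and 0.551 or 1.37 and 0.416 in H3R26C, and no call in any mutant. The start of Gli3, Foxc1, Sox4, Tfap2a and 7 further listed factors lay in no region.

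Isl1, needed for motor neurons, pancreatic islets and the second heart field, was lost in some genotypes and higher in others. Its 23.7 kb region (chr13:116291701-116315400) had 0.643 and 1.19 in H3WT, no peak in either H3R2C list, 1.73 and 2.28 in H3R8C, no peak in the H3R17C list and 4.61 and 7.18 in H3R26C. No genotype overlapped another except H3R2C and H3R17C, which were both at 0. H3R26C was higher than H3WT by 2.40 ± 0.31 (adjusted p = 0.00845). It was among the 3 longest regions lost in H3R2C, so that loss is given without a test. The call in H3R17C (adjusted p = 0.0391) rests on 1 list and was lost without H3WT replicate 3 or any 1 of the H3R2C and H3R8C lists (up to 0.108). H3R8C did not pass (adjusted p = 0.216), and on the maximum signal H3R26C did not (adjusted p = 0.0522).

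**Figure D5:**
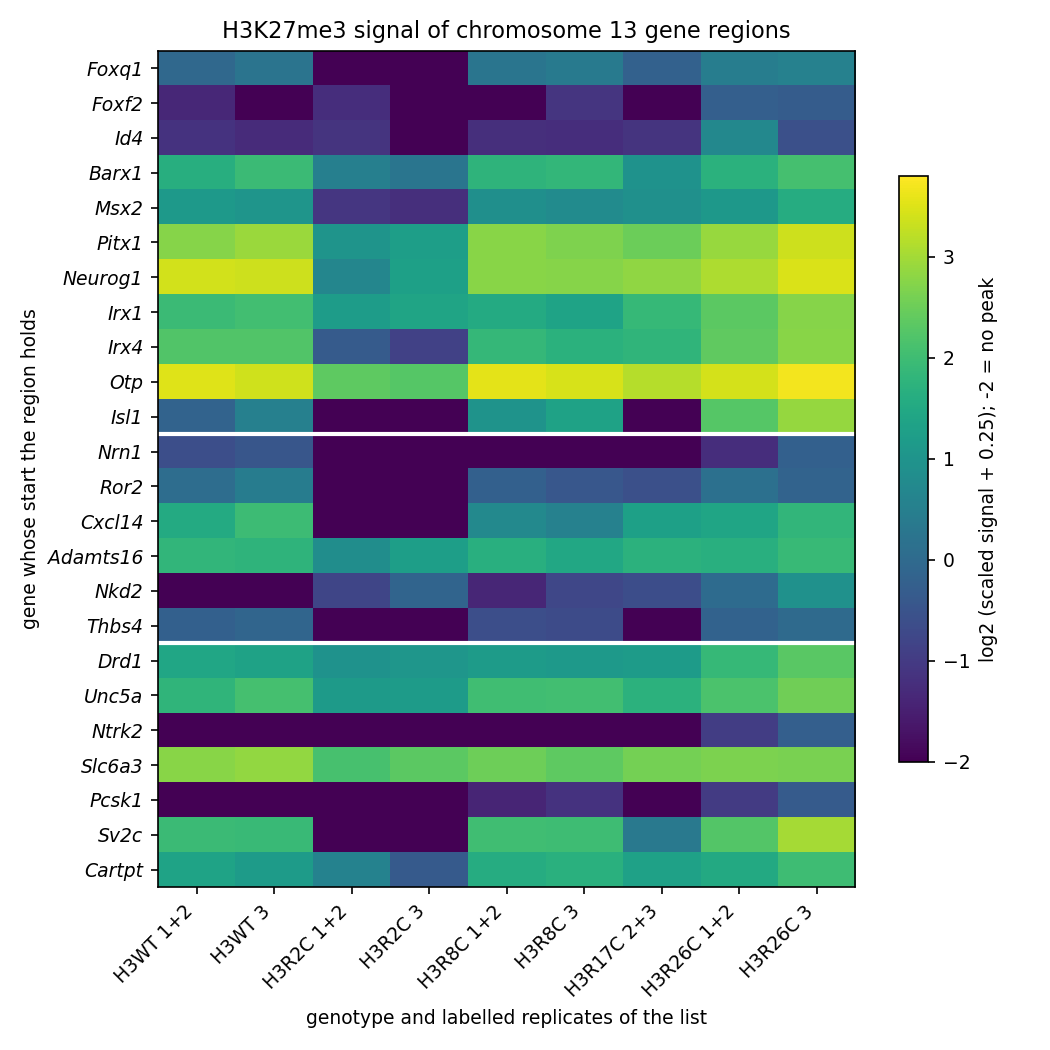
H3K27me3 signal, as log2 (scaled signal + 0.25), of the 24 regions that hold the start of a listed gene (y axis; from top, transcription factors, signalling and matrix genes, and neuronal genes) in each independent list (x axis); -2 is no peak. Foxq1, Isl1, Nrn1, Ror2, Cxcl14, Thbs4 and Sv2c have signal in both H3WT lists and no peak in either H3R2C list, and the Isl1 row is highest in H3R26C.

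Among 25 signalling and matrix genes, 6 had their start in a region (24.0%, beside 12.7% of coding genes), and 5 of the 6 were lower and 1 higher in H3R2C, beside 9.93% and 14.8% of all regions. On chromosome 13 these shares were 16.4% and 5.43%. The chemokine gene Cxcl14 (18.4 kb, chr13:56281501-56299850) had 2.67 and 3.68 in H3WT and no peak in H3R2C (adjusted p = 0.000136). It also stood lower in H3R8C, at 1.40 and 1.22 (-1.12 ± 0.20, adjusted p = 0.0452), a call lost without either H3WT, H3R2C or H3R8C list (up to 0.222). Ror2, a receptor for Wnt5a, had 0.797 and 1.11 in H3WT, no peak in H3R2C (adjusted p = 0.000978) and 0.422 to 0.846 in the other lists. Thbs4, an extracellular matrix thrombospondin, had 0.609 and 0.679 in H3WT and no peak in H3R2C (adjusted p = 0.00130) or in the H3R17C list (adjusted p = 0.00683), and H3R26C kept 0.629 and 0.748. Nrn1, which codes for neuritin, had 0.408 and 0.483 in H3WT and no peak in any H3R2C, H3R8C or H3R17C list. It passed in H3R2C (adjusted p = 0.0353), not without either H3WT, H3R2C or H3R8C list (up to 0.143). Adamts16, a secreted metalloprotease, kept 1.54 and 2.13 in H3R2C of 3.29 and 3.19 in H3WT (-0.76 ± 0.17, adjusted p = 0.0283), and the call was lost without either H3WT list, the shared H3R2C list or either H3R8C list (up to 0.123). Nkd2, an inhibitor of Wnt signalling, was the exception. It had no H3WT peak and a peak in all 7 mutant lists, from 0.138 and 0.336 in H3R8C to 0.777 and 1.65 in H3R26C. H3R26C passed (adjusted p = 0.0189) and so did H3R2C (adjusted p = 0.0493), the first lost without either H3WT list or H3R26C replicate 3 (up to 0.0833) and the second without any 1 of the H3WT, H3R2C and H3R8C lists (up to 0.193).

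Of 11 neuronal genes 7 had their start in a region (63.6%, beside 12.7% of coding genes). In H3R2C 3 were lower, beside 9.93% of all regions and 16.4% of those on chromosome 13. In H3R26C 3 were higher, beside 6.52% of all regions and 13.7% of those on chromosome 13. Sv2c, with the promoter printed above, was the longest region lost in H3R2C (29.9 kb, chr13:96112601-96142500). It had 3.63 and 3.57 in H3WT, none in H3R2C, 3.8 and 3.75 in H3R8C, 1.03 in H3R17C and 4.47 and 7.89 in H3R26C. Only the H3R2C and H3R17C lists lay below H3WT, and H3R17C did not pass (adjusted p = 0.0548). Unc5a, a netrin receptor, fell from 3.23 and 4.03 to 1.99 and 2.00 in H3R2C (-0.78 ± 0.16, adjusted p = 0.0234), and Slc6a3, the dopamine transporter, from 6.57 and 7.03 to 4.10 and 4.77 (-0.59 ± 0.11, adjusted p = 0.0160). The Unc5a call was lost without H3WT replicate 3 or any 1 of the H3R2C and H3R8C lists (up to 0.117), and the Slc6a3 call without either H3WT list or the shared H3R2C list (up to 0.0713). Drd1, the D1 dopamine receptor, was higher in H3R26C at 3.45 and 4.74 against 2.46 and 2.29 (0.71 ± 0.15, adjusted p = 0.0409), which was lost without either H3WT, H3R2C or H3R8C list (up to 0.159). Ntrk2, the receptor for BDNF, had a peak only in the H3R26C lists, at 0.269 and 0.596. The rule kept this region on H3R26C alone, so its higher signal there is no test although it counts among the 3. Pcsk1, a prohormone convertase, had none in H3WT, 0.251 and 0.537 in H3R26C (adjusted p = 0.0230) and 0.129 and 0.2 in H3R8C. The Pcsk1 call was lost without any 1 of the H3WT and H3R2C lists (up to 0.0983). Cartpt, a neuropeptide gene, had 1.23 and 0.535 in H3R2C and 2.31 and 2.04 in H3WT, just outside the threshold (adjusted p = 0.0539).

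Other gene groups of the chromosome were mostly bare. No start of the 54 replication-dependent histone genes, 26 prolactin family genes, 15 Serpinb genes or 36 Zfp genes lay in a region, nor did those of the H3 writer Nsd1 and the PRC2 partner Jarid2. Of 50 vomeronasal and olfactory receptor genes 10 did (20.0%, beside 12.7% of coding genes), in 9 regions. In H3R26C 2 of these were higher (beside 6.52% of all regions and 13.7% of those on chromosome 13), Olfr1359 with 1.47 and 1.94 against 0.279 and 0.408 in H3WT (adjusted p = 0.00454) and Olfr1366 with 2.14 and 2.21 against 1.19 and 1.31 (adjusted p = 0.0166), and the second call was lost without either H3WT list or H3R26C replicate 3 (up to 0.0766). On the maximum signal neither passed. Olfr1359 was also called higher in H3R2C (adjusted p = 0.0475) and lower in H3R17C (adjusted p = 0.0488), each lost without most of the single lists (up to 0.167 and 0.116). Of 10 housekeeping genes only Tbca had a region at its start (43.3 kb), with 5.81 and 5.04 in H3WT, 3.93 and 4.46 in H3R2C and no call in any mutant.

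The 3 longest regions called in every list lay at Gcm2 (163.6 kb, chr13:41085001-41248550), a parathyroid factor gene, at the noncoding Gm48662 (67.3 kb) and at Phactr1 (61.2 kb), which codes for a regulator of protein phosphatase 1 and actin. At Gcm2 the lists ran 31.7 and 32.2 in H3WT, 19.2 and 20.1 in H3R2C, 32.1 and 30.0 in H3R8C, 27.3 in H3R17C and 27.5 and 35.2 in H3R26C. The H3R2C lists were the lowest, and the change did not pass (-0.70 ± 0.26, adjusted p = 0.121). Phactr1 fell from 11.4 and 10.5 to 6.19 and 5.87 in H3R2C (-0.83 ± 0.15, adjusted p = 0.0157), not without either H3WT or H3R2C list (up to 0.0914) nor on the maximum signal. Gm48662 had 4.82 to 7.78 in all lists and no call.

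The longest regions lost and gained were chosen by those calls and are given without a test. In H3R2C a 25.1 kb region 250.7 kb from the start of Irx1 went from 1.46 and 2.17 in H3WT to no peak, and had 3.63 and 3.73 in H3R26C. In H3R8C the 3 longest losses were a region 60.6 kb from Irx2 (15.3 kb; 1.32 and 1.19 in H3WT), one 29.3 kb from Gm3045 (14.2 kb; 0.874 and 1.08) and one 224.1 kb from Adamts16 (14.3 kb; 0.408 and 0.439). All of them were without a peak in the H3R2C lists as well, and had 0.633 to 1.82 in the H3R26C lists. In H3R26C the longest losses were smaller, 8.65 to 10.3 kb near Uqcrfs1, Syk and Cmya5, with 0.291 to 0.570 in H3WT. The 3 longest gains in H3R2C lay between 148.9 and 551.7 kb from Mef2c, with 2.57 and 1.90 in the region printed above, 1.64 and 0.765, and 1.37 and 1.01. The H3WT and H3R26C lists had no peak in any of the 3, and 13 of the 47 gains in H3R2C fell in window 9, where they lie. That window holds 37 of the 773 regions, and also 1 gain in H3R8C, 2 in H3R17C and 6 in H3R26C. The gains in H3R26C near Adgrv1 (1.65 and 1.26; 13.1 kb), 212.0 kb from Adamts16 (1.07 and 0.496) and 94.6 kb from Ptch1 (0.712 and 0.247) had no H3WT peak, and the last had 0.904 and 0.28 in H3R2C. Gains in H3R8C were weak, with 0.131 to 0.336 in its lists at Nkd2, near Pcsk1 and near Adgrv1.

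HA marks where the tagged transgenic H3 was detected. The chromosome 13 share of autosomal HA peaks was 4.21% and 3.87% in H3WT, 1.57% and 1.07% in H3R2C, 2.10% and 2.46% in H3R8C, 2.26% and 2.13% in H3R17C and 3.38% and 2.93% in H3R26C. All 8 mutant lists lay below both H3WT lists. The means were 4.04 ± 0.244%, 1.32 ± 0.355%, 2.28 ± 0.252%, 2.20 ± 0.0935% and 3.15 ± 0.314% (SD, n = 2 lists each), and the ratios to H3WT 0.327, 0.564, 0.543 and 0.780. Chromosome 16 was as low in H3R2C (0.325), chromosome 14 nearly so in H3R17C (0.544), and in H3R26C 2 autosomes were lower, the lowest being chromosome 12 (0.698). In H3R8C the next autosome stood at 0.842. H3R26C thus had a higher H3K27me3 share and a lower HA share than H3WT on this chromosome. The shared H3WT HA list stood apart, with 15344 peaks of median width 10.7 kb where the other H3WT list had 37907 of 2.65 kb and the mutant lists 46398 to 52083 of 0.80 to 1.60 kb. The smallest summed signal called was 43200 and 6300 in the H3WT HA lists and 1350 to 3250 in the mutant HA lists. The part of these widths and signals in the shares was not tested. As a share of covered bases the values were 3.93% in H3WT and 1.22%, 2.09%, 2.04% and 2.85% in the mutants, in the order above.

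Of the 13 windows, 10 held at least 20 HA peaks in each H3WT list. The ratio of the mean HA share to the H3WT mean was below 1 in all 10 in H3R2C, from 0.175 (window 12) to 0.739 (window 3), in all 10 in H3R8C (0.373 to 0.896) and H3R17C (0.387 to 0.911), and in 9 of 10 in H3R26C, with 1.27 in window 7. Single lists overlapped in some windows. In window 1 the H3WT lists had 0.186% and 0.0756% and the shared H3R2C list 0.0821%. In window 7 the H3WT lists had 0.360% and 0.483%, H3R8C replicate 3 had 0.430% and the H3R17C lists 0.387% and 0.381%. Window 9 was the opposite on few peaks, with 1 and 1 in H3WT and 29 and 7 in H3R2C, 5 and 7 in H3R8C, 16 and 7 in H3R17C and 22 and 14 in H3R26C. It holds the longest H3K27me3 gains of H3R2C and also the longest of H3R26C, near Adgrv1.

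HA peaks lay over a smaller share of the H3K27me3 regions on this chromosome than on the other autosomes. They overlapped 11.4% and 10.9% of the 773 regions in H3WT, beside 15.6% and 17.1% on the other autosomes. In H3R2C the values were 8.28% and 6.86% beside 20.9% and 23.9%, in H3R8C 5.69% and 4.14% beside 15.3% and 12.2%, in H3R17C 8.41% and 6.60% beside 16.6% and 15.9%, and in H3R26C 7.63% and 7.37% beside 13.2% and 13.6%. The chromosome 13 value was the lower of the pair in all 10 lists. The HA peak share was among the values that chose the chromosome, and fewer HA peaks leave fewer regions to overlap. These values are therefore a description. The overlap to be expected from the number and width of the HA peaks was not computed.

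The HA peaks merged into 3814 regions on chromosome 13 of 136952 in all. Only 38 were called in all 10 lists and 2555 in 1 list. The longest of the 38 spanned Fam50b and Pxdc1 (130.5 kb, chr13:34618451-34748950), Fbp1, which codes for a gluconeogenic enzyme (69.0 kb, chr13:62886101-62955050), and the protease inhibitor genes Serpinb6b and Serpinb9 (61.8 kb, chr13:32957451-33019200). These are merged lengths, and the H3WT peaks covered most of them. In the first, peaks covered 126450 and 107750 bases in H3WT, 5750 and 8350 in H3R2C and 11950 to 50000 in the other mutant lists. In the last they covered 60400 and 51050 bases in H3WT and 1050 and 2150 in H3R2C. HA lay at the start of 14 of 15 Serpinb genes in at least 1 list, in 12 and 7 of them in the H3WT lists, 0 and 1 in H3R2C, 5 and 2 in H3R8C, 2 and 2 in H3R17C and 3 and 4 in H3R26C. Serpinb1b (6 of 10 lists), Serpinb6b and Serpinb9 (5 each) were the most recurrent of the listed genes, with Nsa2, a housekeeping gene, also in 5. At the histone cluster HA was found at 9 of 54 starts, in 2 and 5 in H3R2C and 2 and 0 in H3R26C, and at none in H3WT, H3R8C or H3R17C. Over all 836 coding genes of the chromosome the share with HA at a start was 9.81% and 8.25% in H3WT, 6.34% and 7.78% in H3R2C, 3.11% and 3.47% in H3R8C, 2.99% and 3.23% in H3R17C and 5.50% and 7.54% in H3R26C. The share of these genes with HA in at least 1 list was not computed, so the counts of 14 and 9 have no background. Nothing is read from the histone counts in H3R2C and H3R26C.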

How the data were processed

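CUT&RUN was done on 5 genotypes with 4 antibodies (60 samples), and the 30 anti-IgG and anti-H3K4me3 samples are not analysed here. The authors used Rsubread for alignment (build mm10), and SEACR 1.3 in its stringent mode with a threshold of 0.01 gave the peaks. The deposited lists have 6 columns and no header. Columns 4 and 5, made by the authors with SEACR, were taken from its output format as the summed signal (unscaled coverage over the bases of a peak) and its highest signal, and column 6 as the place of that maximum. 1 H3R17C anti-H3K27me3 file is named for another mark and was left out. Identical lists were counted once, which left 9 H3K27me3 and 10 HA lists. The read totals in the study were not used, and counting intervals are 95% Wilson intervals.

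Peaks were merged with pandas 2.3.3 and numpy 2.4.6 (Python 3.11.15), each list was divided by its median over regions called in every list, and log2(scaled signal + 0.25) was fitted by limma 3.58.1 (R 4.3.3; lmFit, eBayes with trend, genotype only, all 5 genotypes; the lone H3R17C list is assumed to vary like the others). P-values were adjusted by Benjamini-Hochberg over all 22849 regions, with 0.05 as threshold, and the script was tested on simulated data. Lost regions were called in both H3WT lists and no mutant list, and gained regions the opposite. Starts are those of GENCODE M21 basic within 1 kb, and sequences are from RefSeq GRCm38.p6. Named regions were the 3 longest lost and gained in H3R2C, H3R8C and H3R26C, the 3 longest called in every list, those at the start of a listed gene, and the longest and most recurrent HA regions and genes. The chromosome, its regions and the gene lists were chosen with earlier results of these data known.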

Additional observations from a re-analysis of the deposited data

Results flagged for a closer look

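The shift of H3K27me3 on chromosome 13 against the other autosomes ran in opposite directions between mutants. Over the regions called in every list, both H3R26C lists lay above 0 (0.11 and 0.21 on the log2 scale) and all 5 lists of H3R2C, H3R8C and H3R17C lay below it. The mean of the H3R26C lists exceeded that of H3R2C by 0.54, that of H3R8C by 0.50 and the 1 list of H3R17C by 0.37. These differences were not tested. All of the mutants share the H3WT lists.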

How the results depend on the processing

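Of 254 recomputed shares, medians and counts, 178 stayed close to the reported value and 76 moved. Only the medians have a sign that could reverse, and 0 of them did. Shares and counts could only stay close or move. With a mean scaled signal of at least 0.25, the share called lower in H3R17C on chromosome 13 fell under that of all regions. On the upper 50% of peaks by signal the H3K27me3 shares were 4.12% in H3WT, 2.91% in H3R8C and 5.02% in H3R26C, and the HA shares 3.77% in H3WT, 1.99% in H3R8C, 1.77% in H3R17C and 2.58% in H3R26C. Of covered bases, H3WT had 4.30% and H3R8C 3.02% for H3K27me3, and H3R17C 2.04% for HA. Without 1 list the H3K27me3 shares ran from 4.31 to 4.33% in H3WT, 2.79 to 3.27% in H3R2C, 3.17 to 3.30% in H3R8C and 5.08 to 5.28% in H3R26C. The HA shares ran from 3.87 to 4.21%, 1.07 to 1.57%, 2.10 to 2.46%, 2.13 to 2.26% and 2.93 to 3.38% in H3WT, H3R2C, H3R8C, H3R17C and H3R26C.

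The median change less that of the other autosomes was -0.54 in H3R2C, -0.45 in H3R8C and 0.37 in H3R26C with a pseudocount of 0.05, and -0.14, -0.11, -0.10 (H3R17C) and 0.13 with 1. On the maximum signal it was -0.21, -0.21, -0.14 and 0.13, and over regions called in every list 0.15 in H3R26C. Without 1 list it ran from -0.37 to -0.27 in H3R2C, -0.31 to -0.21 in H3R8C, -0.21 to -0.065 in H3R17C and 0.25 to 0.33 in H3R26C. Without the shared H3WT list it was -0.26 in H3R8C and -0.12 in H3R17C, and the lowest H3R17C size, -0.065, came without H3WT replicate 3. The pseudocount sets the size of these medians, since many regions have no peak in some lists.

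On the upper 50% of peaks 83, 54, 59 and 17 regions were lost and 26, 2, 17 and 66 gained in H3R2C, H3R8C, H3R17C and H3R26C. With peaks over at least 50% of a region 5 were gained in H3R8C. Without 1 list, losses ran from 158 to 219, 134 to 146, 173 to 182 and 43 to 104, and gains from 53 to 75, 20 to 22, 49 to 59 and 122 to 163. Gains in H3R8C were 21 without H3WT replicate 3 or the shared H3R8C list.

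Limma counts fell where fewer regions were tested. Over regions called in every list they were 43 lower and 3 higher in H3R2C, 9 and 0 in H3R8C, 1 and 0 in H3R17C and 3 and 23 in H3R26C. With a mean scaled signal of at least 0.25, H3R2C had 13 higher, H3R8C 18 lower and 0 higher, H3R17C 0 lower and 0 higher, and H3R26C 10 lower and 36 higher. At an unadjusted p under 0.05 the counts of 0 were 5 higher in H3R8C and 53 lower and 3 higher in H3R17C with this filter, and 1 higher in each over regions called in every list. No other tool was run. On the maximum signal H3R8C had 5 higher and H3R17C 40 lower, and the cause was not tested. Without 1 list the lower counts ran from 77 to 160, 17 to 65, 15 to 51 and 16 to 44, and the higher counts from 26 to 48, 1 to 4, 14 to 20 and 82 to 116.

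Replicate deviations of same-numbered lists correlated at -0.0109 to 0.212 over 5401 regions in 6 pairs of genotypes, so the numbers were not taken to pair the samples. With a replicate block (H3R17C left out) there were 119 lower and 36 higher in H3R2C, 25 and 1 in H3R8C and 15 and 88 in H3R26C. Of 25 named calls 23 still passed, all but Cxcl14 in H3R8C (adjusted p = 0.0752) and Drd1 in H3R26C (adjusted p = 0.0698). Of the 28 named calls, 19 passed on the maximum signal and 22 with a pseudocount of 1, and 150 of 224 recomputations without 1 list passed. Calls that failed on the maximum signal or with a pseudocount of 1 are not all marked where the gene is described. The read totals in the study were not set beside the lists, so a region without a peak may lie under the calling threshold of its list.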
